A study of Mus musculus with 4 samples.

Results

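Retinoic acid synthesis, transport, breakdown and response were followed through 10 genes of the 55426 rows in a deposited table of gene expression. The genes are Stra6, Aldh1a1, Aldh1a2, Aldh1a3, Crabp1, Crabp2, Rarb, Cyp26a1, Cyp26b1 and Cyp26c1. They were chosen by name, as members of the retinoic acid pathway, and each matched exactly 1 row. Expression is given in FPKM, fragments scaled to transcript length and library depth. This allows an approximate comparison between genes and between libraries, whose FPKM summed to 793308 to 866239 and were not brought to a common total.

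The libraries came from mouse retinal organoids at day 6, aggregates of stem cells guided in culture towards retinal progenitors. All 4 shared one cell line, a Mettl3 knockout with an Rx:GFP reporter and a doxycycline-inducible, HA-tagged METTL3, the enzyme that writes N6-methyladenosine on RNA. In 2 libraries the line was left untreated, and in 2 it received doxycycline (Dox, 2 µg/ml for 6 days). The medium of every library also held a compound written as AGN at 0.1 µM. The labels do not spell out that name. Some compounds with AGN code names are antagonists of retinoic acid receptors, and whether this one is was not given in the sources used here. Sample titles begin with EV or EV+Dox, a term the labels do not explain either. The protocol says that duplicates were prepared as libraries in separate rounds and names no separate cultures, so the p-values measure the spread between these libraries, which may be technical.

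Retinoic acid is a small, diffusible signal made from vitamin A. STRA6 is a membrane receptor that brings retinol into cells, retinol is oxidised to retinaldehyde, and the ALDH1A enzymes turn retinaldehyde into retinoic acid. The binding proteins CRABP1 and CRABP2 carry the acid inside the cell, nuclear receptors such as RARB switch genes on or off with it, and the CYP26 enzymes destroy it. In the embryonic eye Aldh1a1 marks the dorsal retina and Aldh1a3 the ventral retina, while Cyp26a1 and Cyp26c1 mark a stripe between them.

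Among the 10 genes, Crabp1 had the largest change on the log2(FPKM + 1) scale, and its mean FPKM rose 4.85-fold with Dox. Its relative Crabp2 fell to 0.654 of its untreated level, a call that depended on the settings. Stra6 and the synthesis gene Aldh1a1 rose as well, and the call of Stra6 also depended on the settings. Aldh1a1 started from close to nothing, and by the ratio of mean FPKM its rise was the larger one, 11.9-fold. The other 6 genes, among them the receptor gene Rarb and all 3 Cyp26 genes, stayed below 1 FPKM in every library.

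Rarb and Cyp26a1 are textbook direct targets of the retinoic acid receptors, and the elements they are known for can be read in the RefSeq promoter sequences (GRCm38, 250 bases before to 50 after each start site). They are shown because both genes are widely used as markers of retinoic acid signalling. In the first pair of lines below, capitals mark a pair of receptor half-sites in the same orientation with 5 bases between them, the DR5 element. The Rarb stretch runs on the minus strand at chr14:16575507-16575535 and lies in an exon annotated to Rarb. The Cyp26a1 stretch lies at chr19:37697751-37697797 on the plus strand, upstream of the gene, and its element reads on the opposite strand. The Crabp1 stretch, from the gene with the largest change on the log2(FPKM + 1) scale, lies at chr9:54764560-54764747 on the plus strand and ends at the base before the start site. Its capitals mark the GC box GGGCGG in either orientation.
Rarb: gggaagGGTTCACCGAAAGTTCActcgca
Cyp26a1: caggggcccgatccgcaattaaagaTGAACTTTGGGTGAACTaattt
Crabp1: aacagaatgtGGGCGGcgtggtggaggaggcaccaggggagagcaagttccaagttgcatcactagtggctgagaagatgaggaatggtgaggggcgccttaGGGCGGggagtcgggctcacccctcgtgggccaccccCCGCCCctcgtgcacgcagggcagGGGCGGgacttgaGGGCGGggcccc

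The search took the consensus half-site AGGTCA, the variant AGTTCA found in both elements above, the form GGTTCA found in Rarb, and the further form GGGTCA. Any pair of these in the same orientation with 1, 2 or 5 bases between them was counted, on both strands. Promoter entries were found for 8 of the 10 genes, in 12 windows. The half-site forms were chosen with the elements of Rarb and Cyp26a1 known, so their presence there is no finding. Windows of the other genes of the 8 held no DR5 element, and 0.0974% of all 32851 promoter windows hold one. The spacings of 1 and 2 bases were found in none of the 12 windows and in 0.222% and 0.268% of all windows. The GC box was in 35.7% of all windows. It occurred 5 times in the window of Crabp1, 3 times in that of Cyp26b1, 2 times in that of Cyp26a1 and 5 times over 3 of the 4 windows of Stra6, and in those of no other of the 8. These matches describe letters and show no binding.

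The libraries were alike in the depth fitted from their FPKM values. No read counts entered that fit, so the sequenced depth itself was not measured. Steps in the low values gave fitted depths of 31900000 to 34700000 fragments, and 23334 to 23871 rows were above 0 per library. Mettl3, the knocked-out gene, was listed at 40.33 and 37.98 FPKM untreated and at 45.2 and 46.37 FPKM with Dox (log2 fold change 0.22, adjusted p = 0.122 in limma), and the table does not separate the inducible copy from the locus. Of the 6 retinal progenitor markers 5 rose with Dox, 3 of them tested only through their Dox values. Lhx2 went from 26.72 and 24.3 to 277.17 and 323.88 FPKM. Pax6, the sixth marker, was at 118.86 to 130.69 FPKM in all libraries. The untreated libraries held little Rax (0.82 and 1.12 FPKM) and Six6 (0.01 in both), the defining genes of the tissue in their label.

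Of the 10 genes, 4 averaged 1 FPKM or more across the libraries and were tested among 13931 genes. With limma on log2(FPKM + 1), 3 were higher and 1 lower with Dox at an adjusted p under 0.05, against 4.44% of all tested genes higher, 4.87% lower and 9.31% in either direction. Aldh1a1 entered the test only through its Dox values, so it had to differ in order to be tested. Counting all 10 genes without a test, 7 had both Dox libraries above both untreated ones and 1 had both below, while Rarb and Cyp26c1 overlapped or were equal. Among the 27532 rows above 0 in any library, which leave out Cyp26c1, 20.4% were separated upwards and 21.8% downwards. The 7 higher genes include Aldh1a2 and Cyp26a1, which held at most about 6.0 and 9.9 fragments per library. For a single gene, 2 libraries against 2 allow no exact two-sided permutation p under 0.333, so the tests rest on variance shared across genes. In these bulk libraries, more cells that express a gene and more RNA per cell cannot be told apart.

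**Figure D1:**
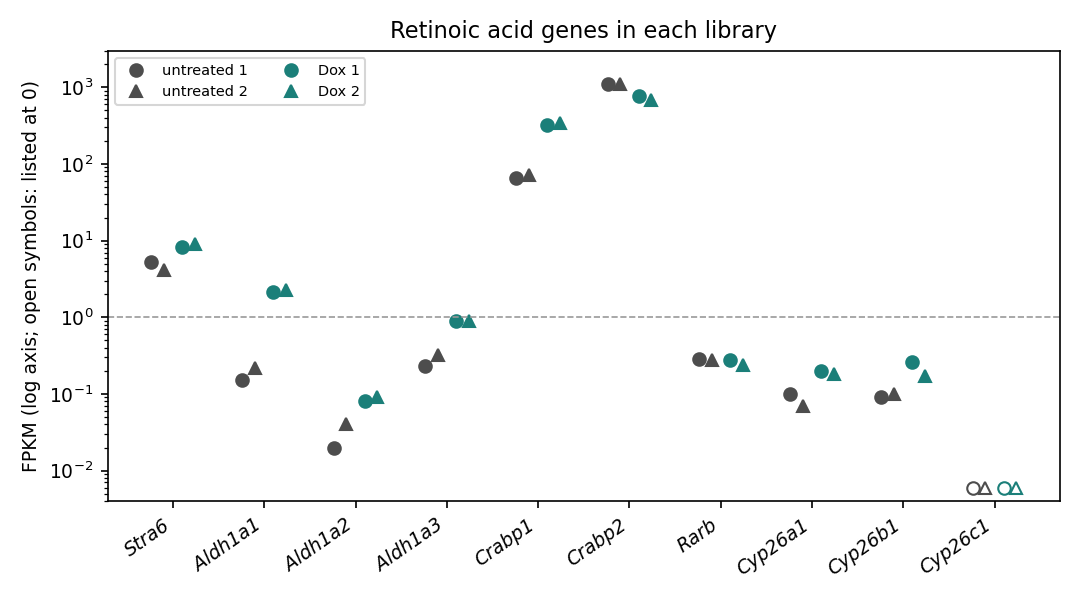
FPKM of the 10 retinoic acid genes in each library, on a log axis, with untreated libraries in grey and Dox libraries in green; circles are replicate 1, triangles replicate 2, open symbols a listed 0, and the dashed line 1 FPKM. Crabp1 and Crabp2 lie far above the rest, Stra6 and Aldh1a1 lie higher with Dox, and the other 6 genes remain below 1 FPKM in every library.

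Uptake was represented by Stra6 (ENSMUSG00000032327, chr9:58063788-58153996 on GRCm38, the build of all positions here, plus strand), the receptor for retinol bound to its carrier in blood. Without Dox it stood at 5.21 and 4.18 FPKM, and with Dox at 8.21 and 8.98 FPKM. Both Dox libraries lay above both untreated ones, and the gap between the groups was wider than either replicate gap. The means were 4.70 ± 0.728 and 8.60 ± 0.544 FPKM (SD, n = 2 each), and Stra6 rose by 0.76 ± 0.126 on the log2 scale (SE; limma adjusted p = 0.0207). The call was lost when the filter on low values was dropped (adjusted p = 0.107). It was also lost without untreated replicate 2 (0.101), Dox replicate 1 (0.0938) or Dox replicate 2 (0.14), where the lone library is assumed to vary like the other group.

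Of the synthesis genes, Aldh1a1 (ENSMUSG00000053279, chr19:20492715-20643465, plus strand) rose. Its values were 0.15 and 0.22 FPKM untreated and 2.12 and 2.3 FPKM with Dox. On its longest annotated transcript these values correspond to about 10.2 and 16.2 fragments without Dox and 142.9 and 159.8 with it. The groups were far apart and the replicates close, with means of 0.185 ± 0.0495 and 2.21 ± 0.127 FPKM (SD, n = 2 each). The ratio of the means was 11.9-fold, and the log2 fold change, which the pseudocount of 1 shrinks for a gene this low, was 1.44 ± 0.136 (SE; limma adjusted p = 0.00276).

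Aldh1a7, a rodent duplicate of Aldh1a1 on the same chromosome, moved in the same direction and was the more abundant of the pair. Also tested only through its Dox values, it was at 0.32 and 0.36 FPKM untreated and 10.37 and 9.29 FPKM with Dox, a rise of 3.01 ± 0.119 on the log2 scale (SE; limma adjusted p = 1.5e-04). Of the 50-base windows of Aldh1a1 transcripts, 3.06% also occur in Aldh1a7, so some reads could belong to either. With both rows summed, a setting chosen after the data were seen, the log2 fold change was 3.10 (adjusted p = 1.25e-04). How reads that fit both were assigned was not given in the sources used here.

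Aldh1a3 (ENSMUSG00000015134, chr7:66390890-66427517, minus strand), the synthesis gene of ventral retina, was listed at 0.23 and 0.32 FPKM untreated and at 0.89 and 0.9 FPKM with Dox. That is about 23.7 and 35.6 fragments against 90.8 and 94.6, and the groups did not overlap. Its mean of 0.585 FPKM kept it out of the main test. Without the filter its log2 fold change was 0.57 (adjusted p = 0.0567 in limma), which missed the threshold.

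Aldh1a2 (ENSMUSG00000013584, chr9:71215789-71296243, plus strand) makes retinoic acid in mesoderm and in tissue around the eye. Values of 0.02 and 0.04 FPKM untreated and of 0.08 and 0.09 FPKM with Dox amount to between 1.3 and 6.0 fragments per library. A ratio of so few fragments has little meaning. Summed over the 3 synthesis genes, the level was 0.4 and 0.58 FPKM untreated and 3.09 and 3.29 FPKM with Dox, most of it Aldh1a1 in the Dox libraries.

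The binding proteins were the only abundant genes of the set. Crabp1 (ENSMUSG00000032291, chr9:54764748-54773110, plus strand) was listed at 65.2 and 71.65 FPKM untreated and at 323.97 and 339.46 FPKM with Dox. The replicates were close and the groups far apart, with means of 68.4 ± 4.56 and 331.7 ± 10.9 FPKM (SD, n = 2 each). On the log2 scale Crabp1 rose by 2.26 ± 0.0762 (SE; limma adjusted p = 1.04e-04). The absolute log2 fold change lay at the 99th percentile of all tested genes. Its rank by level among all rows went from 1962 and 1801 to 361 and 318.

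Crabp2 (ENSMUSG00000004885, chr3:87948666-87953376, plus strand), the partner known to hand retinoic acid to its nuclear receptor, moved the other way. The untreated libraries held 1096.6 and 1120.56 FPKM and the Dox libraries 770.12 and 679.88 FPKM. Both Dox libraries lay below both untreated ones, yet the gene remained among the 169 most abundant rows of every library. The means were 1109 ± 16.9 and 725.0 ± 63.8 FPKM (SD, n = 2 each), and Crabp2 fell by 0.61 ± 0.0995 on the log2 scale (SE; limma adjusted p = 0.0188). The call was lost with no filter (adjusted p = 0.095) and with the replicate number as a block (0.0833). It was also lost without untreated replicate 1 (0.163), untreated replicate 2 (0.195) or Dox replicate 2 (0.083).

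Within each library the balance of the pair differed between the groups. Crabp2 exceeded Crabp1 by 16.8 and 15.6 times in the untreated libraries and by 2.38 and 2.00 times in the Dox libraries. Crabp1 made up 5.61% and 6.01% of the pair's summed level untreated and 29.6% and 33.3% with Dox. The sum itself changed less, from 1161.8 and 1192.21 to 1094.09 and 1019.34 FPKM. The transcripts of the pair share no 50-base window with each other or with any other annotated transcript.

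**Figure D2:**
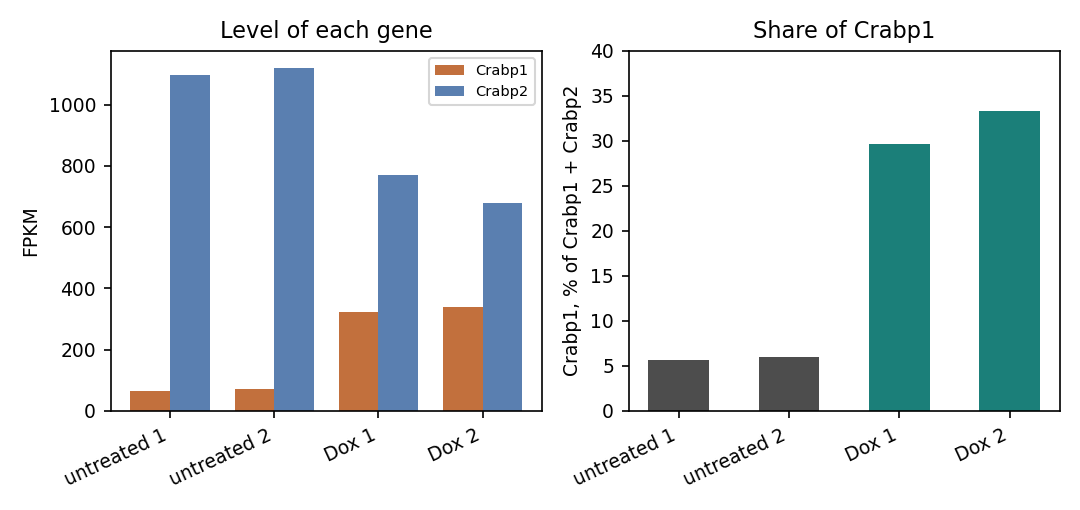
Left, FPKM of Crabp1 (orange) and Crabp2 (blue) in each library; right, Crabp1 as a percentage of the summed level of both, with untreated libraries in grey and Dox libraries in green. Crabp1 makes up 5.61% and 6.01% of the sum untreated and 29.6% and 33.3% with Dox.

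The genes whose values over the 4 libraries lay nearest to each binding protein, by Euclidean distance of log2(FPKM + 1), were read out as a description. Nearest to Crabp1 were Sfrp2, which encodes a secreted Wnt antagonist (distance 0.878), the imprinted RNA gene H19 (1.02) and the lysosomal protease gene Ctsd (1.12). Sfrp2 stood at 75.79 and 67.8 FPKM untreated and at 198.61 and 244 FPKM with Dox. Nearest to Crabp2 were mt-Nd4 (0.446), Hmgb1 (0.51) and Cox4i1 (0.511), abundant genes with log2 fold changes of -0.20 to -0.19. Of these, 0 passed the threshold (adjusted p from 0.274 to 0.443 in limma, and 0 at the unadjusted 0.05), so their likeness to Crabp2 is mostly one of level.

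The response gene Rarb (ENSMUSG00000017491, chr14:16430839-16819156, minus strand) encodes a receptor that retinoic acid itself induces through the DR5 element printed above. Its level was 0.29 and 0.28 FPKM untreated and 0.28 and 0.24 FPKM with Dox. The groups overlapped, and all libraries held between 22.6 and 27.9 fragments by its longest transcript. Exons of Rarb overlap those of Top2b on the opposite strand, and 34.1% of its 50-base windows occur in other annotated transcripts. Top2b stood at 34.6 to 41.44 FPKM, and whether counting used strand was not given in the sources used here, so reads of the shared stretches may belong to either gene. Without the filter the log2 fold change was -0.03 (adjusted p = 0.744 in limma).

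Cyp26a1 (ENSMUSG00000024987, chr19:37697798-37701536, plus strand) encodes the breakdown enzyme that is most readily induced by retinoic acid. The libraries gave 0.1 and 0.07 FPKM untreated and 0.2 and 0.18 FPKM with Dox, or 3.8 to 9.9 fragments per library. The groups did not overlap, but without the filter the difference missed the threshold (adjusted p = 0.168 in limma). Both genes that carry the element thus stood below 0.3 FPKM in every library.

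Cyp26b1 (ENSMUSG00000063415, chr6:84571414-84593908, minus strand) was listed at 0.09 and 0.1 FPKM untreated and at 0.26 and 0.17 FPKM with Dox. The Dox libraries lay higher and apart from each other, and without the filter the adjusted p was 0.266. Cyp26c1 (ENSMUSG00000062432, chr19:37685581-37693398, plus strand), which lies 4399 bp upstream of Cyp26a1, was listed at 0 in all 4 libraries. At these depths 3 fragments would be 0.0572 to 0.0626 FPKM per library, the limit that a count of 0 allows for counting error. The 3 breakdown genes summed to 0.19 and 0.17 FPKM untreated and 0.46 and 0.35 FPKM with Dox.

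**Figure D3:**
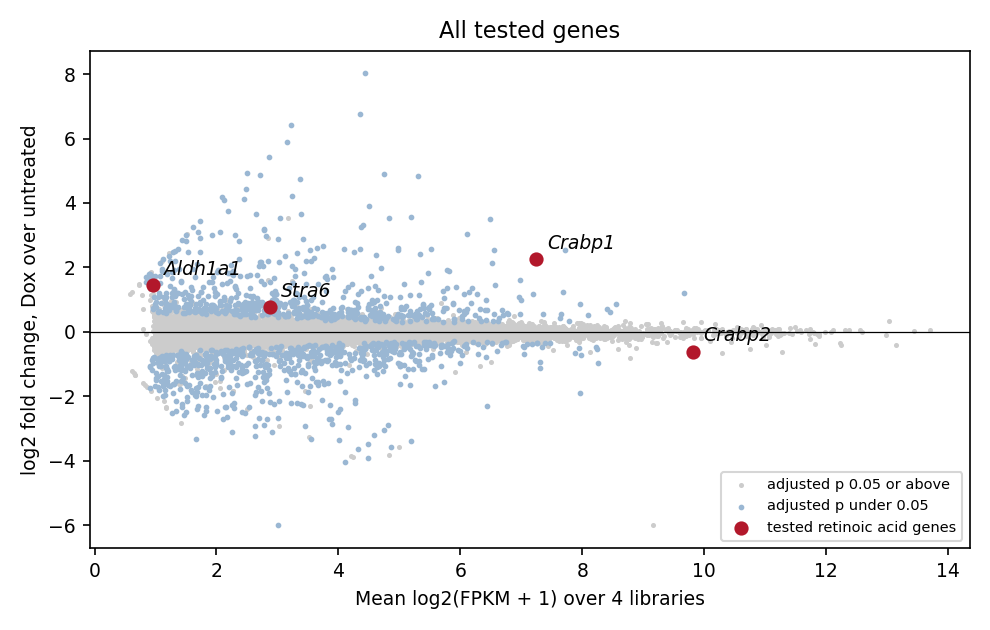
Log2 fold change of Dox over untreated against mean log2(FPKM + 1) for the 13931 tested genes, with genes at an adjusted p under 0.05 in blue, the others in light grey and the 4 tested retinoic acid genes in red. Crabp1 lies at 2.26 and Crabp2 at -0.61 among the abundant genes, while Aldh1a1 lies at the low end of the level axis.

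The steps before and after these genes were read from lists chosen with earlier results of these data known. Of 23 genes that handle retinol and retinaldehyde, 10 were tested, 2 rose and 0 fell (4 and 0 at an unadjusted p under 0.05 in limma). Their median log2 fold change was 0.03, against -0.0042 over all tested genes. Rdh10, whose enzyme oxidises retinol to retinaldehyde, went from 2.48 and 2.64 to 4.47 and 5.11 FPKM, or by 0.70 ± 0.117 on the log2 scale (SE; limma adjusted p = 0.021). That call was lost without the filter (adjusted p = 0.102) and when any library was left out (0.0682 to 0.118).

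Dhrs3, which encodes a reductase that turns retinaldehyde back into retinol and is itself induced by retinoic acid, was at 0.09 to 0.23 FPKM and below the filter. It is named for its role and after its values were seen. In the list of related aldehyde dehydrogenases, 3 of 4 genes were tested, 1 rose and 1 fell. The one that fell was Aldh1b1, a mitochondrial enzyme gene, from 5.18 and 5.53 to 3.35 and 3.38 FPKM (log2 fold change -0.54, adjusted p = 0.0332 in limma). It lost the call without the filter (0.11), with TPM (0.0816), with the replicate block (0.0666) and when any library was left out (0.123 to 0.19).

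The receptors themselves did not pass the test. Of the 7 genes for retinoid receptors and their partners, Rara, Rarg, Rxra, Rxrb, Rxrg, Ppard and Fabp5, 0 were called in limma, and 0 reached an unadjusted p under 0.05. The median log2 fold change was 0.004. Rara, the receptor gene with the widest expression, was at 9.69 and 7.56 FPKM untreated and at 9.87 and 12.12 FPKM with Dox (adjusted p = 0.277), and Rxrb, at 33.54 to 40.89 FPKM, was the most abundant nuclear receptor gene of the list. Among 12 coregulators 0 were called, with 1 gene at an unadjusted p under 0.05. That gene was Nrip1, a corepressor gene induced by retinoic acid, at 12.72 and 12.99 FPKM untreated and 18.16 and 25.18 FPKM with Dox (adjusted p = 0.0536).

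**Figure D4:**
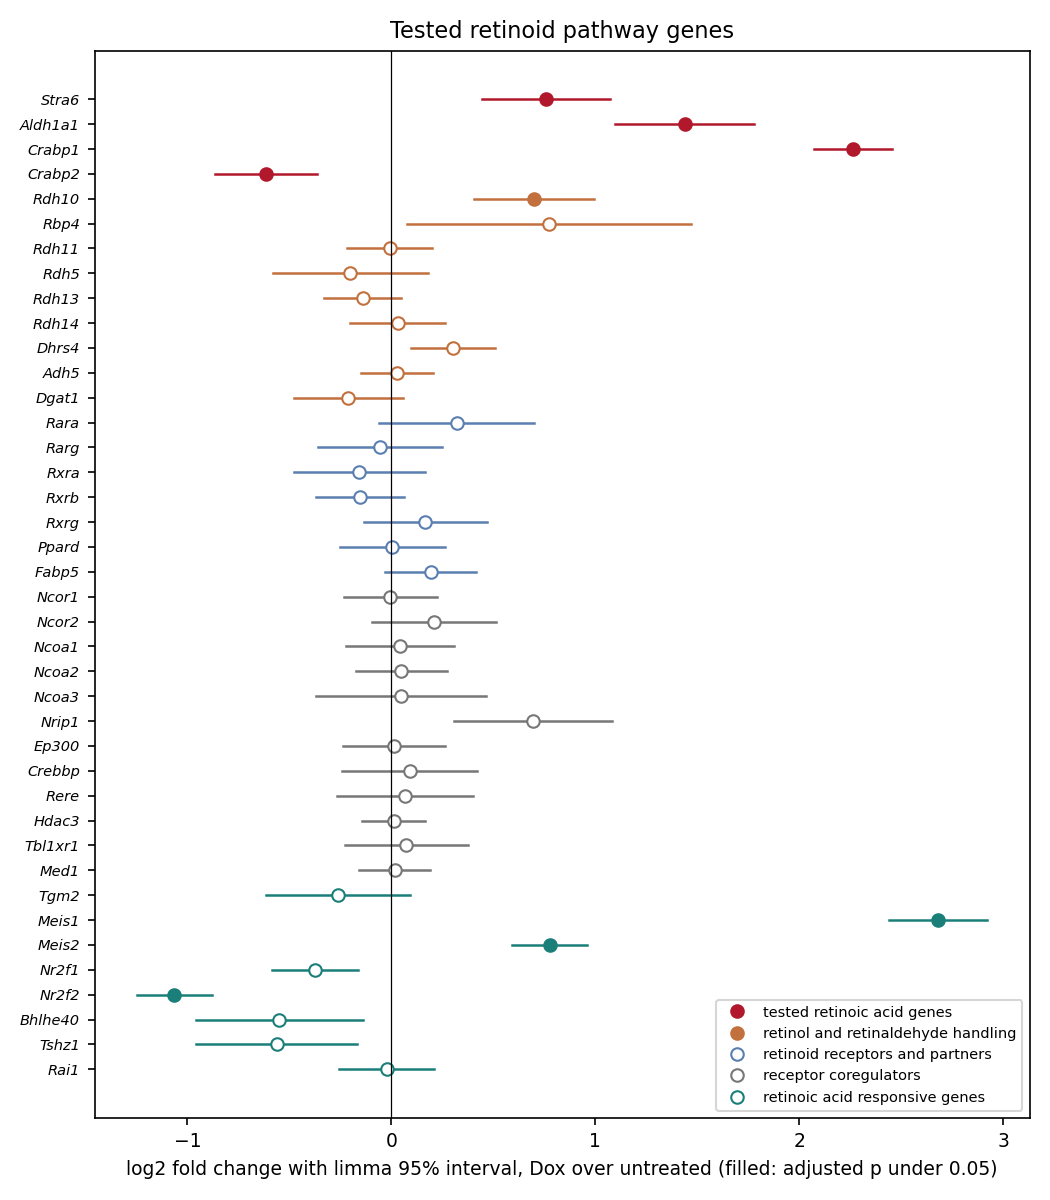
Log2 fold change of Dox over untreated with its 95% interval from limma for tested genes of the pathway, coloured by list, with filled circles for an adjusted p under 0.05. Crabp1 and Meis1 lie above 2, while the receptor and coregulator lists have no filled circle.

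Genes that retinoic acid is known to induce in embryos or stem cells went both ways. Of 17 such genes 8 were tested, with 2 higher, 1 lower and 5 without a call, and a median log2 fold change of -0.32. At an unadjusted p under 0.05 in limma, 2 were higher and 4 lower. Meis1, a homeobox gene of limb and early eye, went from 4.56 and 4.10 FPKM to 31.45 and 34.84 FPKM (log2 fold change 2.68, adjusted p = 1.17e-04 in limma). Meis2 went from 16.15 and 16.23 to 27.66 and 29.19 FPKM (0.77, adjusted p = 0.00264). Nr2f2, an orphan nuclear receptor gene, fell from 72.88 and 73.91 to 33.01 and 36.25 FPKM (-1.06, adjusted p = 9.01e-04). The Hox genes of the list, the classic targets in the hindbrain, were at 0.03 FPKM or below in every library.

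Genes that pattern the optic vesicle along the axis on which Aldh1a1 and Aldh1a3 differ included higher ones with Dox on both sides. All 5 dorsal genes tested rose, with Tbx2, Tbx3 and Bmp4 showing log2 fold changes of 5.89, 4.88 and 3.90. Of the 3 ventral genes tested 2 rose, Pax2 by 4.43 and Vax2 by 2.91 on the log2 scale. The adjusted p-values of these 5 named genes were at most 9.36e-04 in limma. Like Aldh1a1, 3 of the dorsal genes (Tbx5, Tbx2 and Tbx3) and both ventral ones averaged under 1 FPKM untreated and had to differ in order to be tested, so these counts are a description.

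Markers of cell types that can hold retinoic acid genes moved with Dox as well, and their part in the results above was not tested. Pigment epithelium markers summed to 2.31 and 2.4 FPKM untreated and 61.21 and 61.87 FPKM with Dox, with 3 of 5 tested and all 3 higher, of which Mitf and Dct were tested only through their Dox values. Tyr, the gene of the pigment-making enzyme tyrosinase, was at 0 untreated and at 0.11 and 0.01 FPKM with Dox. Neural crest and mesenchyme markers summed to 25.99 and 25.73 FPKM untreated and 9.26 and 8.25 FPKM with Dox, with 2 of 4 tested genes lower, Sox10 and Foxd3. Both were tested only through their untreated values. The other two, Twist1 (2.57 and 2.34 against 3.95 and 3.46 FPKM with Dox, adjusted p = 0.0914 in limma) and Tfap2a (3.28 and 3.17 against 3.57 and 3.76 FPKM, adjusted p = 0.49), were listed higher with Dox and did not pass. Neuron markers summed to 144.66 and 139.86 FPKM untreated and 79.82 and 83.73 FPKM with Dox, with all 5 tested genes lower, 3 of them tested only through their untreated values.

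Of 3 further marker lists, 0 genes were called in limma. Surface ectoderm and lens markers summed to 48.04 to 57.12 FPKM, mostly Krt8 and Krt18. Foxe3 was at 7.83 and 7.94 FPKM untreated and at 7.47 and 6.13 FPKM with Dox. Krt5, Trp63 and Cryaa were at 0.06 FPKM or below. In limma 0 of the 3 tested genes reached an unadjusted p under 0.05. Pluripotency markers summed to 15.87 to 22.72 FPKM, with 1 of 3 lower at an unadjusted p under 0.05. Of the 4 mesoderm markers 3 were found by name, and they summed to at most 1.53 FPKM. In that list 0 genes were tested, so no call was possible.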

How the data were processed

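Poly(A) RNA of 4 organoid libraries was sequenced in pairs. The authors deposited FPKM values, 1 column per library, rounded to 2 decimals. STAR, Cuffdiff and mm10 are named per the submitters' processing notes, without versions or roles; annotation, strand setting and filters were not given in the sources used here. Groups came from the sample titles. log2(FPKM + 1) was fitted for the 13931 genes that averaged 1 FPKM or more, with limma 3.58.1 (R 4.3.3; eBayes with trend) on all libraries, two-sided, with Benjamini-Hochberg adjustment over all tested genes at 0.05. Fold changes on this scale understate the change of low genes. The fit was tested on simulated data.

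The 10 genes, the lists and the naming rule were chosen with earlier results of these data known. Named are all 10 genes, up to 3 called genes per pathway list and direction with the largest changes, and the 3 nearest genes of the highest and lowest called member. A few more are named for their role. Some genes of the lists are not reported here, but they remain in the tests and counts. The alternatives were other pseudocounts, filters and scalings, eBayes without trend or robust, a replicate block and each library left out. The Aldh1a1 and Aldh1a7 sum was added after the data were seen.

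Coordinates and exon overlaps are from GENCODE M21 (GRCm38, the assembly of mm10), which matched 55240 row identifiers. Depth was fitted with Python 3.11.15 and numpy 2.4.6 from steps in the low values of single-transcript genes; 77.3% to 79.5% of these values fell within 0.1 fragment of a whole number. Fragment numbers for genes with several transcripts are approximate and cover counting error only.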

Additional observations from a re-analysis of the deposited data

How the results depend on the processing

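Over all genes, 336 were called higher and 409 lower without a filter, and 408 and 413 with a minimum mean of 5 FPKM, which tests fewer genes, against 619 and 678. Leaving out each library in turn, with fewer samples, gave 265 to 332 higher and 341 to 370 lower. Of the retinoic acid genes, 1 to 3 were called higher and 0 to 1 lower in these 4 fits, where Aldh1a1 fell below the filter without either Dox replicate. The count of lower calls was 0 without a filter and 0 with the replicate block in limma, with 1 gene, Crabp2, at an unadjusted p under 0.05 in both. The block called 532 genes higher and 602 lower, changed the call of no other retinoic acid gene, and rests on numbers not shown to pair the libraries (correlation of same-numbered deviations -0.043 over the tested genes). Crabp1 was called in all 15 alternatives (log2 fold change 2.20 to 2.33, adjusted p 4.68e-06 to 0.0107), Aldh1a1 in the 12 that tested it (0.48 to 3.10), Stra6 in 11 of 15 (0.49 to 0.89) and Crabp2 in 10 of 15 (-0.70 to -0.53). None of these 4 changed sign. The 3.10 belongs to the sum of Aldh1a1 and Aldh1a7, and the highest value of Aldh1a1 alone was 3.03, with a pseudocount of 0.1. That sum leaves the values of Crabp1, Stra6 and Crabp2 as they were, so it adds a call to their counts by construction. The adjusted p of Stra6 ranged from 0.0118 to 0.14 and that of Crabp2 from 7.94e-04 to 0.195. The 6 genes below 1 FPKM were kept out of the main test by the filter. Of these, Aldh1a2 held at most 6.0 fragments per library, Cyp26a1 at most 9.9 and Cyp26c1 0, too few to measure a change well. The log2 fold changes of the 6 depend on the pseudocount by construction, apart from Cyp26c1, which was at 0 throughout.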
